A study of Gallus gallus and Columba livia with 18 samples.

Results

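The genes described here were lower at the last of 3 stages than at the middle stage in the developing retina of both birds studied, the pigeon (Columba livia) and the chicken (Gallus gallus). They are the 116 genes, of 5684 that could be compared, whose log2(FPKM + 1) was at least 1 lower at E8 than at E5 in pigeon and in chicken. A gene could be compared when its upper-case name stood once in each table and its value was above 0 at E5 and E8 in both. The tables share 6589 names listed once in each, and 905 of these were left out because a value was 0. Changes are differences of log2(FPKM + 1) throughout. Pigeon and chicken embryos, with no treatment or genetic change given in the labels, grew at 37 °C. Whole retinas were dissected at E3 (embryonic days 3 to 3.5), E5 (days 5 to 5.5) and E8 (days 8 to 8.5). Each of the 6 groups had 3 libraries, each from 1 to 6 retinas pooled. FPKM is a read abundance scaled to transcript length and to library size, and the authors deposited 1 pooled value per gene and stage. The differences below rest on 1 value a stage, so none carries an SD or a p-value. Strain and sex are not given in the labels.

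The early retina is a sheet of dividing progenitors inside the optic cup, and the outer wall of the same cup becomes the pigment epithelium, which makes melanin and recycles visual pigment. Around the cup lie mesenchyme of neural crest and mesoderm origin, blood vessels and circulating red cells, while the retina of birds itself remains without vessels. Progenitors leave the cell cycle in the course of these stages and become ganglion cells, photoreceptors and other neurons. 

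The genes were chosen by their levels at E5 and E8, so the size of the fall is given as a description. Of all compared names, 5.88% were lower at E8 by at least 1 in pigeon, 3.47% in chicken and 2.04% in both, the last being the 116 genes. For comparison, 218 names passed this limit in pigeon only and 81 in chicken only. Names higher by at least 1 at E8 made up 6.91% in pigeon and 2.71% in chicken, and 110 names, or 1.94%, were higher in both. Just inside the limit stood IGF2, BAG3 and PDIA5, with changes of −1.14 in pigeon and −1.02 in chicken for IGF2, −1.28 in pigeon and −1.02 in chicken for BAG3 and −1.03 in pigeon and −1.27 in chicken for PDIA5. Just outside it stood AFAP1L1, PHACTR2 and PRKG1, with −1.80 in pigeon and −0.99 in chicken for AFAP1L1, −1.01 in pigeon and −0.99 in chicken for PHACTR2 and −0.99 in pigeon and −1.12 in chicken for PRKG1.

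Retinal identity was plain in both tables. ATOH7, the factor needed for ganglion cells, had 37.5, 133 and 1827 FPKM at E3, E5 and E8 in pigeon retinas and 22.4, 117 and 555 FPKM in chicken retinas. SOX2, a progenitor factor, had 112, 146 and 228 FPKM in pigeon and 69.5, 101 and 136 FPKM in chicken over the same stages, so both were highest at E8. These are whole-tissue samples, in which fewer cells of a type and less RNA per cell cannot be told apart. Depth is given only indirectly. Dividing a pigeon value by the smallest nonzero value of gene models of nearly the same length gives a number of smallest steps, and the 116 genes held a median of 197 steps at E5 but 15.4 at E8. At E8, 27 of them held under 5 steps in pigeon, so their low values there are imprecise. At E5, 2 did, CXCL12 with 4.19 and MXRA5 with 3.62 steps. The smallest value differs between lengths and stages, so steps are only a rough guide to depth. MXRA5 held 9.48 steps at E8, more than at E5, although its FPKM was lower, 1.27 against 5.69. The same calculation was not made for chicken. The median change over all compared names from E5 to E8 was 0.015 in pigeon and −0.025 in chicken.

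At E8 the 116 genes had a median of 2.42 FPKM in pigeon and 1.24 FPKM in chicken. Their medians at E3 and E5 were 18.8 and 15.1 FPKM in pigeon and 8.91 and 8.96 FPKM in chicken. All compared names had medians of 30.8, 30.6 and 32.6 FPKM over the 3 stages in pigeon and 14.9, 14.7 and 14.7 FPKM in chicken. The 116 genes therefore stood below the middle of the table already at E3, at a median percentile of 36.8 in pigeon and 36.1 in chicken. The level left at E8, as a share of the level at E5, had a median of 19.1% in pigeon and 19.0% in chicken. It ranged from 0.0937% to 48.2% in pigeon and from 0.239% to 47.4% in chicken. A level under 1 FPKM at E8 was found for 37 genes in pigeon, 54 in chicken and 28 in both. Some stayed abundant, and GJA1 still had 228 FPKM in pigeon and 219 FPKM in chicken.

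**Figure D1:**
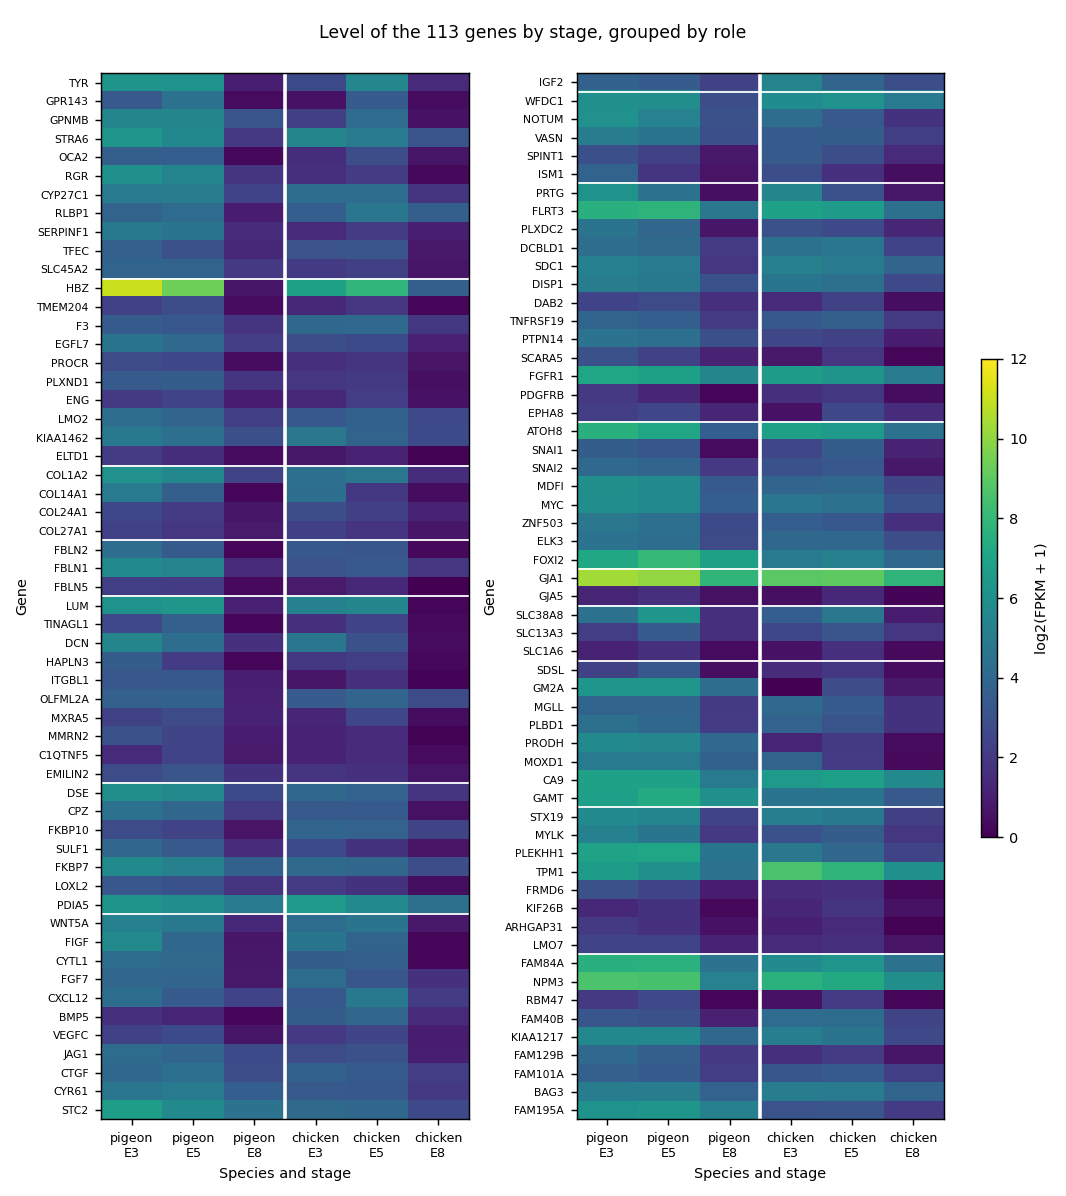
Level of 113 of the 116 genes as log2(FPKM + 1), colour scale starting at 0, in pigeon (left 3 columns of each panel) and chicken (right 3) at E3, E5 and E8. Horizontal white lines separate roles, from pigment genes at the top left to other genes at the bottom right, and E8 is the lowest stage of its species for all genes but RLBP1, GM2A and EPHA8, whose lowest chicken value is at E3.

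Changes of −2 or lower were found for 48 genes in pigeon, 29 in chicken and 21 in both. Changes of −3 or lower in both belonged to 10 genes, among them HBZ, LUM, TYR, SLC38A8, GPR143, WNT5A, FIGF, CYTL1 and COL1A2. They include a globin, 2 proteins of pigment cells, 2 matrix proteins, 3 secreted signals and a transporter. LUM encodes lumican, a small proteoglycan of corneal and other connective tissue, and lies on chicken chromosome 1 from position 45869008 to 45880845 (XLOC_001413), and pigeon scaffold297 from 1364901 to 1372314 (Cli_R006958). LUM had 67.9, 79.7 and 1.18 FPKM at E3, E5 and E8 in pigeon retinas and 37.8, 44.3 and 0.106 FPKM in chicken retinas. It was high at both early stages and nearly gone at E8, with changes of −5.21 in pigeon and −5.36 in chicken. TYR encodes tyrosinase, the rate-limiting enzyme of melanin synthesis, and lies on chicken chromosome 1 from position 192138671 to 192188837 (XLOC_002264), and pigeon scaffold599 from 604986 to 655114 (Cli_R012403). The builds of these positions are not given in the sources used.

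**Figure D2:**
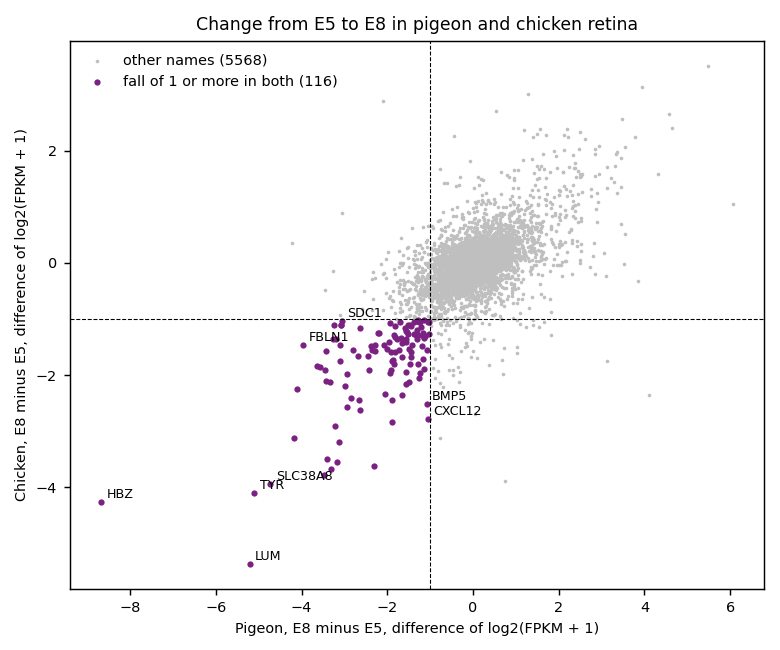
Change from E5 to E8 as a difference of log2(FPKM + 1) in pigeon (horizontal axis) and chicken (vertical axis) for 5684 names, with dashed lines at −1. The 116 genes (purple) fill the lower left corner by construction, with HBZ and LUM farthest out.

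Pigment and visual cycle genes made up 11 of the 116, by roles assigned after the values were seen, and had some of the lowest remaining levels. TYR had 73.1, 68.5 and 1.02 FPKM at E3, E5 and E8 in pigeon retinas and 5.43, 45.7 and 1.74 FPKM in chicken retinas. The E8 value was far below both earlier values in pigeon, whereas in chicken TYR was low at E3 and E8 and high only at E5. GPR143, a receptor of pigment cells that is mutated in human ocular albinism, had 9.12, 22.2 and 0.284 FPKM at E3, E5 and E8 in pigeon retinas and 0.506, 10.3 and 0.302 FPKM in chicken retinas. GPR143 was highest at E5 in both birds, with changes from E5 to E8 of −4.17 in pigeon and −3.12 in chicken. OCA2, a melanosome membrane protein, had 11.4, 11.05 and 0.200 FPKM in pigeon and 1.98, 6.06 and 0.627 FPKM in chicken. SLC45A2, a transporter of melanosomes, had 13.8, 13.1 and 3.01 FPKM in pigeon and 3.05, 3.86 and 0.620 FPKM in chicken over E3, E5 and E8. GPNMB, a glycoprotein of pigment cells, had 42.8, 42.6 and 7.74 FPKM in pigeon and 3.90, 17.3 and 0.490 FPKM in chicken, and it kept a larger share of its E5 level in pigeon than in chicken, 18.2% in pigeon and 2.84% in chicken. TFEC, a transcription factor related to MITF, had 11.9, 6.86 and 1.51 FPKM in pigeon and 7.50, 7.94 and 0.747 FPKM in chicken.

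Members of retinoid handling went the same way. STRA6, the cell-surface receptor that takes up retinol, had 75.1, 47.7 and 2.92 FPKM at E3, E5 and E8 in pigeon retinas and 43.2, 30.4 and 7.80 FPKM in chicken retinas. It was already lower at E5 than at E3 in both birds and lowest at E8. RGR, an opsin of pigment epithelium and Müller glia, had 63.2, 42.2 and 2.63 FPKM in pigeon and 2.19, 3.24 and 0.178 FPKM in chicken over the stages. RLBP1, which binds retinaldehyde in the same cells, had 12.9, 17.6 and 0.953 FPKM in pigeon and 10.9, 25.5 and 11.3 FPKM in chicken. In chicken its E8 value lay slightly above its E3 value, while in pigeon E8 was the lowest stage by far. CYP27C1, which converts vitamin A1 to vitamin A2 in zebrafish, had 30.1, 33.1 and 4.40 FPKM in pigeon and 19.4, 18.8 and 2.64 FPKM in chicken. SERPINF1, the secreted pigment epithelium-derived factor, had 27.6, 23.4 and 1.87 FPKM in pigeon and 1.78, 3.36 and 1.03 FPKM in chicken.

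Of the 26 genes of the melanin and pigment epithelium list, 11 could be compared. Of these, 8 were lower by at least 1 in both birds, against 2.04% of all compared names. The list's median change was −2.32 in pigeon and −1.58 in chicken. The remaining 3 missed the limit in both birds. TRPM1, a channel of melanocytes and bipolar cells, had 299, 255 and 189 FPKM in pigeon and 61.6, 75.3 and 38.1 FPKM in chicken, with changes of −0.43 in pigeon and −0.96 in chicken. SLC24A5, a melanosome exchanger, had 75.8, 79.4 and 103 FPKM in pigeon and 9.42, 11.3 and 8.16 FPKM in chicken, and in pigeon its highest value was at E8. RPE65, the isomerase of the visual cycle in pigment epithelium, was under 1 FPKM at every stage in both species. Summed over all list genes standing once in a table, whether shared or not, the level was 579, 552 and 309 FPKM at E3, E5 and E8 in pigeon (14 genes) and 224, 453 and 152 FPKM in chicken (26 genes). These sums include the genes chosen for their fall. Without them the sums were 376, 347 and 293 FPKM in pigeon (6 genes) and 189, 333 and 135 FPKM in chicken (18 genes). At E8 the list genes LRAT and MLANA were listed at 0 in pigeon, and PMEL and TTR in chicken. Over E3, E5 and E8, list genes at 0 numbered 1, 2 and 2 in pigeon and 2, 1 and 2 in chicken. The part that pigment epithelium left on the retinas plays in these values was not tested.

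**Figure D3:**
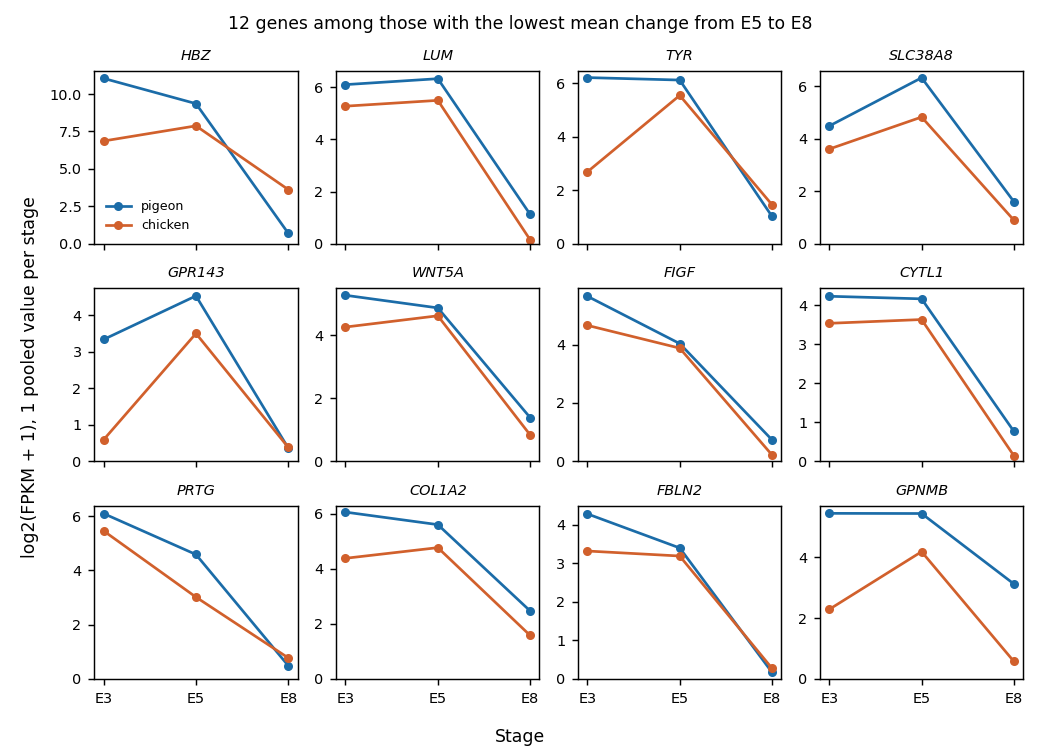
log2(FPKM + 1) at E3, E5 and E8 in pigeon (blue) and chicken (orange) for 12 of the genes with the lowest mean change from E5 to E8, each point 1 pooled value and each vertical axis starting at 0. All 12 end at their lowest value in both species, and the tables were normalised separately, so levels are not compared between the lines.

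Genes of blood and vessels made up 10 of the 116. HBZ, an embryonic globin of the alpha type carried by primitive red cells, had 2119.6, 657 and 0.615 FPKM at E3, E5 and E8 in pigeon retinas and 115, 234 and 11.3 FPKM in chicken retinas. In pigeon it was highest at E3 and nearly gone at E8, with 1.04 smallest steps there, and in chicken it was highest at E5. Globin genes resemble each other closely, and reads may have been divided among them in the counting, so the HBZ values are uncertain. Endothelial genes stood far below HBZ at E3 and E5. ENG, a co-receptor for TGF-beta in endothelium, had 3.06, 4.38 and 0.976 FPKM in pigeon and 1.5, 3.52 and 0.514 FPKM in chicken over E3, E5 and E8. EGFL7, a protein secreted by endothelium, had 23.9, 16.1 and 3.51 FPKM in pigeon and 6.32, 5.44 and 1.15 FPKM in chicken. ELTD1, an adhesion receptor of vessels, had 3.23, 2.01 and 0.288 FPKM in pigeon and 0.725, 1.199 and 0.0573 FPKM in chicken. LMO2, a cofactor needed for blood and vessel formation, had 19.5, 14.1 and 3.67 FPKM in pigeon and 8.78, 12.1 and 5.33 FPKM in chicken. F3, tissue factor, which starts clotting, had 10.2, 8.72 and 2.45 FPKM in pigeon and 15.4, 15.9 and 2.87 FPKM in chicken, and PROCR, the protein C receptor of endothelium, had 5.94, 5.07 and 0.306 FPKM in pigeon and 2.04, 2.63 and 0.532 FPKM in chicken. All of these were lowest at E8 in both species. TMEM204, PLXND1 and KIAA1462 complete the group.

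Of 9 endothelium list genes compared, 3 were among the 116, 4 were lower by at least 1 in pigeon and 5 in chicken. Of all compared names, 2.04% were among the 116, 5.88% were lower by that size in pigeon and 3.47% in chicken. No endothelium list gene was higher by at least 1. VWF, the clotting factor of endothelium, had −1.19 in pigeon and −0.86 in chicken, and PECAM1, which also marks leukocytes, had 0.02 in pigeon and 0.37 in chicken. The summed level of the list was 81.2, 56.7 and 11.9 FPKM over the stages in pigeon (13 genes) and 62.7, 93.8 and 45.4 FPKM in chicken (19 genes). Without the genes chosen for their fall it was 34.8, 22.1 and 3.73 FPKM in pigeon (10 genes) and 46.1, 72.7 and 38.4 FPKM in chicken (16 genes). ESAM, LYVE1 and ROBO4 were listed at 0 at E8 in pigeon, and ECSCR and ROBO4 in chicken. Of the erythroid list only 3 genes could be compared, and HBZ alone passed the limit, while TFRC, the transferrin receptor of dividing cells in general, had −0.17 in pigeon and −0.02 in chicken. The erythroid list summed to 2640.4, 954.6 and 108 FPKM in pigeon (5 genes) and 866, 1985 and 181 FPKM in chicken (9 genes). Without HBZ the sums were 521, 298 and 107 FPKM in pigeon (4 genes) and 750, 1751 and 170 FPKM in chicken (8 genes). In these sums TFRC had 109, 101 and 89.4 FPKM in pigeon and 66.8, 57.7 and 56.9 FPKM in chicken. It thus made up most of the pigeon sum at E8. The part that blood left in the samples plays in these values was not tested.

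Proteins of the extracellular matrix and the enzymes that build it formed the largest block, with 4 collagens, 3 fibulins, 10 other matrix proteins and 7 enzymes or folding factors. COL1A2, a chain of type I collagen, had 65.8, 47.7 and 4.54 FPKM at E3, E5 and E8 in pigeon retinas and 19.9, 26.3 and 1.99 FPKM in chicken retinas. Only a small part of the E5 level was left at E8, 9.51% in pigeon and 7.57% in chicken. COL14A1, a collagen that sits on the surface of fibrils, had 28.4, 11.4 and 0.158 FPKM at E3, E5 and E8 in pigeon retinas and 19.1, 2.91 and 0.316 FPKM in chicken retinas. It was highest at E3 and went down over both intervals in each bird. COL24A1, a fibrillar collagen, had 5.06, 3.44 and 0.595 FPKM in pigeon and 6.24, 3.90 and 1.28 FPKM in chicken, and COL27A1, another fibrillar collagen, had 3.96, 2.72 and 0.819 FPKM in pigeon and 3.81, 2.46 and 0.675 FPKM in chicken. Of 12 collagen genes compared, these 4 were lower by at least 1 in both birds, against 2.04% of all compared names. None was higher by that size, and the median change was −0.57 in pigeon and −0.68 in chicken. Among chains of the basement membrane collagen type IV, COL4A5 and COL4A6 had changes of −0.25 in pigeon and −0.26 in chicken for COL4A5 and −0.82 in pigeon and −0.19 in chicken for COL4A6. COL4A1, another type IV chain, passed the limit in chicken only, with −0.57 in pigeon and −1.90 in chicken.

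All 3 fibulins that could be compared were among the 116, against 2.04% of all compared names. Fibulins are matrix glycoproteins that bind elastic fibres and basement membranes. FBLN1 had 50.8, 40.7 and 1.66 FPKM at E3, E5 and E8 in pigeon retinas and 7.30, 9.11 and 2.67 FPKM in chicken retinas. FBLN2 had 18.4, 9.53 and 0.125 FPKM at E3, E5 and E8 in pigeon retinas and 8.97, 8.11 and 0.210 FPKM in chicken retinas. FBLN5 had 3.71, 3.25 and 0.252 FPKM at E3, E5 and E8 in pigeon retinas and 0.847, 1.61 and 0.0144 FPKM in chicken retinas. FBLN1 was the most abundant of them in pigeon at every stage, and FBLN2 and FBLN5 were under 0.3 FPKM at E8 in both species. FBLN1 was left at 4.09% in pigeon and 29.4% in chicken of its E5 level.

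Small proteoglycans and fibre proteins followed the collagens. DCN, decorin, which binds collagen fibrils, had 43.2, 19.2 and 2.26 FPKM at E3, E5 and E8 in pigeon retinas and 25.0, 6.91 and 0.284 FPKM in chicken retinas. Like COL14A1 it was highest at E3 and lower at each later stage in both birds. EMILIN2, a glycoprotein of elastic fibres, had 5.65, 7.85 and 2.40 FPKM in pigeon and 2.495, 2.31 and 0.598 FPKM in chicken. MXRA5, a large secreted matrix protein, had 4.11, 5.69 and 1.27 FPKM in pigeon and 1.48, 4.85 and 0.306 FPKM in chicken. HAPLN3, which links hyaluronan to proteoglycans, had 10.7, 3.42 and 0.162 FPKM in pigeon and 2.80, 3.69 and 0.208 FPKM in chicken, and its E8 value in pigeon was 1.01 smallest steps. TINAGL1, a secreted basement membrane protein, had 5.34, 11.7 and 0.176 FPKM in pigeon and 2.03, 4.35 and 0.245 FPKM in chicken, and MMRN2, a matrix protein of endothelium, had 6.87, 4.73 and 0.907 FPKM in pigeon and 1.21, 1.79 and 0.0574 FPKM in chicken. TINAGL1 was highest at E5 in both birds and MMRN2 only in chicken.

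Enzymes that act on the matrix were included too. LOXL2, which crosslinks collagen and elastin, had 8.58, 7.11 and 2.60 FPKM in pigeon and 3.38, 2.35 and 0.358 FPKM in chicken over E3, E5 and E8. SULF1, which removes sulphate from heparan sulphate outside the cell, had 14.4, 9.08 and 1.88 FPKM in pigeon and 5.51, 2.34 and 0.532 FPKM in chicken. DSE, which makes dermatan sulphate, had 59.2, 49.3 and 5.57 FPKM in pigeon and 15.7, 12.9 and 2.53 FPKM in chicken, and CPZ, a secreted carboxypeptidase that can bind Wnt proteins, had 21.2, 14.7 and 3.26 FPKM in pigeon and 9.18, 9.38 and 0.463 FPKM in chicken. In the endoplasmic reticulum, FKBP10, a chaperone of type I collagen, had 5.79, 4.44 and 0.535 FPKM in pigeon and 13.4, 12.7 and 4.45 FPKM in chicken and FKBP7 had 52.97, 36.6 and 12.1 FPKM in pigeon and 16.5, 14.4 and 6.18 FPKM in chicken. PDIA5, a disulphide isomerase, had 73.7, 58.9 and 28.4 FPKM in pigeon and 86.0, 51.3 and 20.7 FPKM in chicken and was one of the 3 genes just inside the limit. Of 7 FKBP genes compared, only FKBP7 and FKBP10 passed the limit in both birds, against 2.04% of all compared names. FKBP9 passed it in pigeon, with −1.32 in pigeon and −0.78 in chicken. The family's medians were −0.94 in pigeon and −0.40 in chicken.

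The matrix list of 61 genes had 17 compared. Of these, 9 were lower by at least 1 in both birds, against 2.04% of all compared names, and none was higher by that size. The medians of −1.17 in pigeon and −1.36 in chicken include the genes chosen for their fall. The other 8 compared genes had medians of −0.017 in pigeon and −0.34 in chicken. List genes outside the 116 summed to 101, 83.3 and 71.7 FPKM over E3, E5 and E8 in pigeon (9 genes). In chicken they summed to 749, 910 and 635 FPKM (42 genes). The periocular mesenchyme list, which shares LUM, DCN and COL1A2 with the matrix list, had 9 genes compared and 5 of them among the 116. Its medians were −1.08 in pigeon and −1.70 in chicken. PDGFRA, a growth factor receptor of mesenchyme, was highest at E8 in pigeon, with 9.08, 5.26 and 25.2 FPKM in pigeon and 10.6, 7.64 and 6.35 FPKM in chicken over the stages and changes of 2.07 in pigeon and −0.23 in chicken. TGFBI, a matrix protein of cornea and mesenchyme, had −0.16 in pigeon and −1.43 in chicken. Mesenchyme genes standing once in a table summed to 270.3, 208 and 54.4 FPKM in pigeon (14 genes) and 227, 347 and 101 FPKM in chicken (25 genes). These sums include the genes chosen for their fall. Without them the sums were 74.4, 46.0 and 43.3 FPKM in pigeon (9 genes) and 135, 258 and 97.6 FPKM in chicken (20 genes). In pigeon the sum of the remaining genes thus differed little between E5 and E8, but single genes moved in opposite directions. PDGFRA was higher at E8, while OGN went from 1.97 to 0.409 FPKM and ALX1 from 4.38 to 0 FPKM. ALX1, ALX4 and TBX15 were listed at 0 at E8 in pigeon, and PRRX1 and TCF21 in chicken. Over E3, E5 and E8, list genes at 0 numbered 1, 2 and 3 in pigeon and 0, 1 and 2 in chicken. The part of mesenchyme in the change of the matrix genes was not tested.

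**Figure D4:**
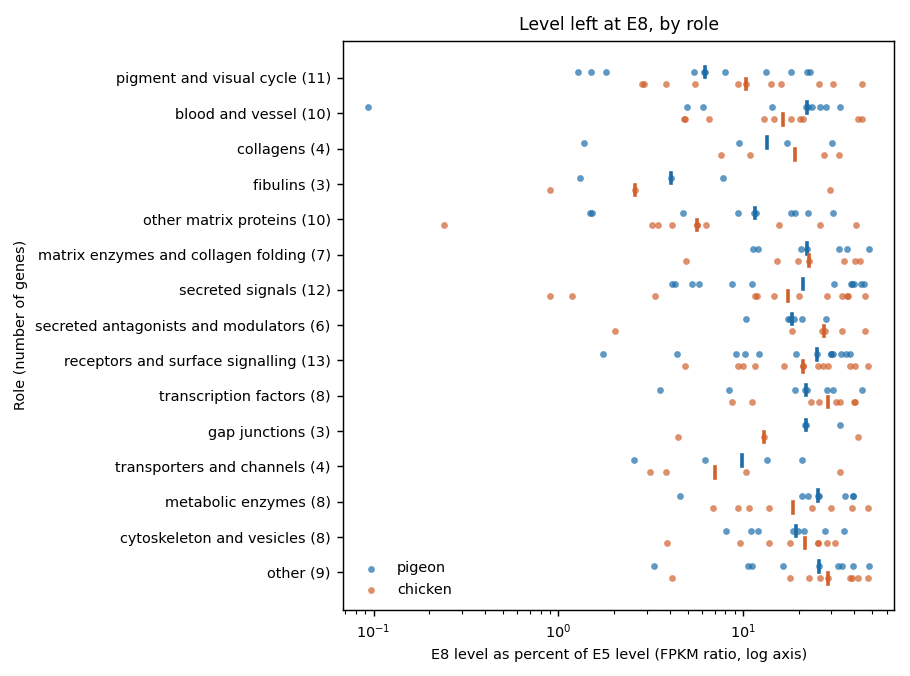
Level at E8 as a percent of the level at E5 (log axis) for each of the 116 genes by role, pigeon above in blue and chicken below in orange, with a bar at the median. Pigment genes had medians of 6.24% in pigeon and 10.4% in chicken, and fibulins 4.09% in pigeon and 2.58% in chicken.

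Signals, grouped as secreted but with the membrane-bound JAG1 among them, numbered 12. WNT5A, a ligand of Wnt pathways that act without beta-catenin, had 37.4, 28.1 and 1.61 FPKM at E3, E5 and E8 in pigeon retinas and 18.1, 23.5 and 0.784 FPKM in chicken retinas. WNT5A was highest at E3 in pigeon and at E5 in chicken, and had little left at E8 in both. FIGF, the vascular and lymphatic growth factor VEGF-D, had 49.6, 15.4 and 0.662 FPKM at E3, E5 and E8 in pigeon retinas and 24.3, 13.7 and 0.162 FPKM in chicken retinas, with a stepwise decline in both. VEGFC, its close relative, had 4.22, 5.47 and 0.613 FPKM in pigeon and 2.98, 4.60 and 0.923 FPKM in chicken. VEGFA, the third family member compared, was lower too but missed the limit, with −0.79 in pigeon and −0.98 in chicken. CYTL1, a small secreted protein of cartilage precursors, had 17.8, 16.97 and 0.700 FPKM in pigeon and 10.6, 11.4 and 0.102 FPKM in chicken, with 1.04 smallest steps at E8 in pigeon. FGF7, a ligand made by mesenchyme, had 14.6, 14.1 and 0.746 FPKM in pigeon and 18.2, 8.12 and 2.30 FPKM in chicken. BMP5, a bone morphogenetic protein, had 2.08, 1.36 and 0.118 FPKM in pigeon and 10.5, 14.6 and 1.73 FPKM in chicken, and its E8 value in pigeon was 1.01 smallest steps.

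CXCL12, a chemokine that guides migrating cells, had 19.2, 10.03 and 4.35 FPKM in pigeon and 8.89, 28.3 and 3.28 FPKM in chicken over E3, E5 and E8, and its pigeon gene model is only 207 bases long. JAG1, a ligand of Notch, had 17.9, 14.3 and 5.49 FPKM in pigeon and 5.66, 6.81 and 1.002 FPKM in chicken. CTGF and CYR61, matrix-associated CCN proteins that are targets of YAP, had 15.3, 19.6 and 6.11 FPKM in pigeon and 12.2, 9.57 and 3.52 FPKM in chicken for CTGF and 25.2, 28.4 and 11.1 FPKM in pigeon and 9.23, 8.79 and 3.00 FPKM in chicken for CYR61. These 2 were the only CCN genes compared. STC2, a secreted glycoprotein, had 100.4, 50.1 and 22.5 FPKM in pigeon and 16.8, 14.5 and 5.25 FPKM in chicken. IGF2, an insulin-like growth factor, had 12.1, 10.3 and 4.11 FPKM in pigeon and 40.4, 14.2 and 6.47 FPKM in chicken, so the step from E3 to E5 was larger than the later step in chicken and smaller in pigeon.

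Secreted and membrane modulators included inhibitors of Wnt and TGF-beta signals and of proteases. NOTUM, an enzyme that inactivates Wnt proteins, had 65.4, 38.6 and 6.78 FPKM in pigeon and 18.5, 9.07 and 2.43 FPKM in chicken. ISM1, a secreted protein that opposes Nodal signalling in zebrafish, had 12.9, 2.61 and 0.547 FPKM in pigeon and 6.35, 2.03 and 0.371 FPKM in chicken. WFDC1, a secreted protein with a protease inhibitor domain, had 64.4, 60.7 and 6.30 FPKM in pigeon and 55.5, 65.6 and 29.8 FPKM in chicken, SPINT1, a membrane protease inhibitor, 6.69, 4.12 and 0.740 FPKM in pigeon and 9.67, 6.27 and 1.75 FPKM in chicken, and VASN, which binds TGF-beta, 31.4, 23.8 and 6.68 FPKM in pigeon and 10.2, 10.7 and 3.64 FPKM in chicken. NOTUM and ISM1 went down over both intervals in each species, whereas WFDC1 in chicken was highest at E5.

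In the list of BMP and TGF-beta genes with antagonists, 12 of 34 were compared, 6 were lower by at least 1 in pigeon, 2 in chicken, and 2 in both, among them BMP5. In the Wnt list, 9 of 34 were compared, 5 were lower by at least 1 in pigeon and 1 in chicken, and WNT5A alone was lower in both. The shares of all compared names were 5.88% in pigeon, 3.47% in chicken and 2.04% in both. Other Wnt genes passed the limit in pigeon only or in neither bird. WNT5B had −0.96 in pigeon and −0.997 in chicken, FZD7, a Wnt receptor, had −1.57 in pigeon and −0.96 in chicken, and NKD1, an inhibitor inside the cell, had −1.26 in pigeon and −0.91 in chicken. SFRP2, a secreted Wnt antagonist, had −3.44 in pigeon and −0.49 in chicken. RSPO2, a secreted enhancer of Wnt signalling, was higher by over 2 in both, with 2.11 in pigeon and 2.28 in chicken.

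Receptors and surface proteins numbered 13. FGFR1, a receptor for fibroblast growth factors, was the second most abundant of them at E5, with 136, 114 and 43.0 FPKM at E3, E5 and E8 in pigeon retinas and 98.7, 71.9 and 29.1 FPKM in chicken retinas. It remained well expressed at E8 and changed by −1.38 in pigeon and −1.28 in chicken. FLRT3, a membrane protein that binds FGF receptors and Unc5 proteins, had 196, 219 and 26.8 FPKM at E3, E5 and E8 in pigeon retinas and 117, 99.4 and 20.8 FPKM in chicken retinas. Its levels at E3 and E5 were close and the E8 level was several times lower in both. PRTG, protogenin, a surface receptor of early neural tissue, had 67.4, 23.0 and 0.403 FPKM in pigeon and 42.9, 7.10 and 0.712 FPKM in chicken, with a decline over both intervals. SDC1, a heparan sulphate proteoglycan, had 37.6, 30.4 and 2.77 FPKM in pigeon and 36.9, 29.5 and 13.9 FPKM in chicken and differed between the birds in depth, with 9.10% in pigeon and 47.3% in chicken of the E5 level left. PDGFRB, a receptor of pericytes and mesenchyme, had 2.99, 1.43 and 0.146 FPKM in pigeon and 2.08, 2.90 and 0.336 FPKM in chicken. DISP1, which releases Hedgehog proteins, had 32.3, 28.2 and 7.08 FPKM in pigeon and 24.7, 20.6 and 5.21 FPKM in chicken. TNFRSF19, a receptor of the tumour necrosis factor family, had 13.8, 10.9 and 3.25 FPKM in pigeon and 8.93, 11.3 and 3.26 FPKM in chicken, and EPHA8, an ephrin receptor, had 3.54, 4.93 and 1.47 FPKM in pigeon and 0.524, 5.07 and 1.91 FPKM in chicken. EPHA8 was the only one of 4 Eph receptor genes compared that passed the limit, which 2.04% of all compared names passed in both birds.

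Transcription regulators numbered 8 besides TFEC and LMO2. SNAI1 and SNAI2, zinc finger factors that drive cells to leave an epithelium, had 10.5, 8.33 and 0.294 FPKM in pigeon and 4.90, 10.7 and 1.198 FPKM in chicken for SNAI1 and 15.9, 13.9 and 3.01 FPKM in pigeon and 7.01, 8.43 and 0.730 FPKM in chicken for SNAI2 over the stages. ATOH8, a basic helix-loop-helix factor, was the second most abundant of the 8 at E5 in pigeon and the first in chicken, with 193, 131 and 10.97 FPKM at E3, E5 and E8 in pigeon retinas and 111, 84.9 and 21.8 FPKM in chicken retinas. Its pigeon gene model has 195 bases, which makes FPKM uncertain there, but E8 was the lowest stage in both species. MYC, a growth factor-induced regulator of cell growth, had 58.4, 50.5 and 11.1 FPKM at E3, E5 and E8 in pigeon retinas and 25.1, 21.5 and 7.21 FPKM in chicken retinas. MYC was a little lower at E5 than at E3 and far lower at E8 in both. MYCN, its relative in neural progenitors, had −0.42 in pigeon and −0.26 in chicken and did not reach the limit. FOXI2, a forkhead factor, had 147, 249.6 and 110.2 FPKM in pigeon and 30.3, 37.1 and 14.9 FPKM in chicken and remained at a high level at E8 in pigeon. ELK3, an ETS factor, had 22.9, 19.1 and 5.82 FPKM in pigeon and 15.5, 15.7 and 6.20 FPKM in chicken, ZNF503, a zinc finger repressor, 25.7, 19.6 and 5.54 FPKM in pigeon and 11.01, 8.84 and 2.06 FPKM in chicken, and MDFI, an inhibitor of myogenic factors, 59.3, 50.7 and 9.64 FPKM in pigeon and 14.2, 14.98 and 4.77 FPKM in chicken.

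Gap junction genes included the most abundant of the 116 at E5 in both birds. GJA1, connexin 43, had 1306, 1046 and 228 FPKM at E3, E5 and E8 in pigeon retinas and 493, 524 and 219 FPKM in chicken retinas. The E8 level was 21.8% in pigeon and 41.9% in chicken of the E5 level, so the gene stayed abundant. GJA5, a connexin of arteries, had 1.35, 2.16 and 0.466 FPKM in pigeon and 0.399, 1.63 and 0.0723 FPKM in chicken. Of 5 connexins compared, 4 were lower by at least 1 in pigeon and 4 in chicken, against 5.88% and 3.47% of all compared names. The family was picked after the values were seen. GJC1, a connexin outside the 116, had −1.07 in pigeon and 0.29 in chicken.

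All 4 transporters and channels were higher at E5 than at E3 in both birds before they were lower at E8. SLC38A8, an amino acid transporter linked to human foveal hypoplasia, had 21.4, 79.1 and 2.03 FPKM at E3, E5 and E8 in pigeon retinas and 11.2, 27.4 and 0.857 FPKM in chicken retinas. It peaked at E5 in both birds, with E8 the lowest stage. SLC13A3, a carrier of dicarboxylates, had 3.60, 9.88 and 2.06 FPKM in pigeon and 5.06, 7.95 and 2.67 FPKM in chicken, and SLC1A6, a glutamate transporter, had 1.198, 2.20 and 0.296 FPKM in pigeon and 0.518, 2.14 and 0.220 FPKM in chicken. Among all 123 solute carrier genes compared, 4 were lower by at least 1 in both, namely SLC38A8, SLC13A3, SLC1A6 and SLC45A2. In pigeon 16 passed the limit and in chicken 8. Of all compared names, 5.88% passed it in pigeon, 3.47% in chicken and 2.04% in both. The family's medians were −0.14 in pigeon and −0.10 in chicken.

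Metabolic enzymes numbered 8. CA9, a carbonic anhydrase of the cell surface, had 117, 114 and 29.3 FPKM in pigeon and 84.7, 109 and 51.7 FPKM in chicken over E3, E5 and E8. GAMT, which makes creatine, had 110.0, 162 and 63.3 FPKM in pigeon and 23.9, 24.1 and 9.32 FPKM in chicken, on a pigeon model of 228 bases. PRODH, which starts the breakdown of proline, had 51.6, 45.4 and 16.1 FPKM in pigeon and 1.39, 3.15 and 0.297 FPKM in chicken. MGLL, which degrades monoacylglycerols, had 13.7, 13.9 and 3.10 FPKM in pigeon and 16.4, 10.3 and 2.43 FPKM in chicken, and MOXD1, a monooxygenase-like protein of neural crest cells, had 28.8, 31.3 and 12.3 FPKM in pigeon and 13.6, 3.26 and 0.224 FPKM in chicken. GM2A, a lysosomal activator of ganglioside breakdown, had 77.4, 75.1 and 19.1 FPKM in pigeon and 0, 5.65 and 0.780 FPKM in chicken. It was the 1 gene listed at 0 at E3, in chicken. Its chicken entry covers only positions 119286214 to 119286466 of chromosome 1, so its values there are uncertain. In pigeon GM2A lies on scaffold79 with PDGFRB, which is on chromosome 13 in chicken. Whether the GM2A entries of the birds are the same gene was not tested. CA9 and GAMT had the highest E8 levels of the 8 in both birds.

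Genes of the cytoskeleton and vesicles and 9 genes of other roles complete the set. TPM1, a tropomyosin that stabilises actin filaments, had 96.5, 63.4 and 22.3 FPKM at E3, E5 and E8 in pigeon retinas and 369.9, 223 and 63.5 FPKM in chicken retinas. It declined at each step in both birds. MYLK, the kinase that activates myosin II, had 37.1, 24.4 and 2.95 FPKM in pigeon and 7.05, 10.8 and 2.74 FPKM in chicken, and STX19, a syntaxin, had 54.3, 41.6 and 4.59 FPKM in pigeon and 34.0, 27.6 and 3.82 FPKM in chicken. KIF26B, a kinesin-like protein, had 1.498, 2.43 and 0.197 FPKM in pigeon and 1.43, 2.45 and 0.437 FPKM in chicken. PLEKHH1, a pleckstrin-homology protein, had 121, 133 and 24.7 FPKM in pigeon and 27.3, 14.5 and 4.59 FPKM in chicken, LMO7, a protein of cell junctions and actin, 4.58, 4.52 and 1.25 FPKM in pigeon and 1.72, 2.17 and 0.553 FPKM in chicken, and FRMD6, an upstream protein of the Hippo pathway, 6.89, 4.72 and 0.934 FPKM in pigeon and 1.85, 2.08 and 0.200 FPKM in chicken. NPM3, a nucleolar chaperone of the nucleoplasmin family, had 388, 362 and 38.4 FPKM at E3, E5 and E8 in pigeon retinas and 202, 155 and 60.2 FPKM in chicken retinas. NPM3 was among the 5 most abundant of the 116 at E5 in each bird and kept a larger share in chicken, 10.6% in pigeon and 38.8% in chicken of the E5 level. BAG3, a co-chaperone, had 33.2, 31.9 and 12.6 FPKM in pigeon and 33.3, 28.4 and 13.4 FPKM in chicken, and FAM84A had 194, 204 and 22.7 FPKM in pigeon and 54.5, 75.1 and 21.6 FPKM in chicken. A further 19 genes are not given with their own values, namely KIAA1462, PLXND1 and TMEM204 of vessels, ITGBL1, OLFML2A and C1QTNF5 of the matrix, PLXDC2, DCBLD1, DAB2, PTPN14 and SCARA5 of the cell surface and signalling, SDSL and PLBD1 of metabolism, ARHGAP31 of the cytoskeleton, and FAM40B, KIAA1217, FAM129B, FAM101A and FAM195A. Their changes from E5 to E8 ranged from −3.25 to −1.04 in pigeon and from −2.33 to −1.05 in chicken.

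Of the 41 compared genes on the 8 lists for other tissues, 17 were among the 116, or 41.5%, against 2.04% of all compared names. These lists cover pigment epithelium, erythroid cells, endothelium, mesenchyme, lens, surface ectoderm, muscle and leukocytes, and the genes were listed with earlier results of these data known. Lens (3 compared), surface ectoderm (3), muscle (2) and leukocyte (1) genes had no member among the 116. Their summed levels over E3, E5 and E8 were 22.2, 17.7 and 18.8 FPKM in pigeon and 697, 785 and 63.5 FPKM in chicken for lens, where CRYAA and GJA3 were listed at 0 at E8 in pigeon and CRYBA2 and FOXE3 in chicken. Within the lens list CRYAB had 1.12, 0.622 and 12.5 FPKM in pigeon and 51.6, 45.8 and 52.1 FPKM in chicken. It made up most of the lens sum at E8 in both birds. For surface ectoderm the sums were 22.7, 22.9 and 11.9 FPKM in pigeon and 82.1, 27.2 and 13.5 FPKM in chicken. There ELF3 and KRT15 were at 0 at E8 in pigeon and KRT5, KRT7 and KRT8 in chicken. Muscle summed to 20.2, 12.3 and 2.49 FPKM in pigeon and 58.6, 40.4 and 31.6 FPKM in chicken, with MYOG and TNNC2 among those at 0 at E8 in both. Leukocyte genes summed to 6.74, 6.31 and 6.53 FPKM in pigeon and 6.05, 8.28 and 2.99 FPKM in chicken, with C1QC at 0 at E8 in both, LAPTM5 and SPI1 also in pigeon. Some list genes were at 0 before E8. Over E3, E5 and E8, lens genes at 0 numbered 0, 1 and 2 in pigeon and 0, 0 and 2 in chicken. Surface ectoderm had 1, 1 and 2 in pigeon and 3, 3 and 3 in chicken. Muscle had 3, 3 and 6 in pigeon and 2, 3 and 4 in chicken. Leukocytes had 0, 1 and 3 in pigeon and 0, 0 and 1 in chicken. The other 99 of the 116 genes stand on none of these lists, and 81 stand on none of the 19 lists used.

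Lists of the retina itself and of dividing cells contributed few genes, on lists with few genes compared. Of 9 progenitor and eye field genes compared, PRTG alone was among the 116, and the list's medians were 0.38 in pigeon and 0.27 in chicken. HMGA2, a chromatin protein of early progenitors, had −1.81 in pigeon and −0.90 in chicken and missed the limit in chicken. None of 8 neuron genes and none of 11 genes of S phase, G2 and mitosis was lower by at least 1 in either bird, with medians of 3.08 and 0.21 in pigeon and 1.88 and 0.19 in chicken. Of 5 glycolysis genes 1 was lower by at least 1 in pigeon, where 5.88% of all compared names were, none in chicken and none in both. In the immediate early and stress list, CTGF and CYR61 alone of 13 compared were lower in both, and in the list of insulin-like factors and MYC, IGF2 and MYC of 7. Of 4 retinoid genes STRA6 alone was lower in both. Of all compared names 2.04% were lower in both. The shares of 1 of 9, 2 of 13, 2 of 7 and 1 of 4 given here are above that, on small lists made with earlier results known.

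Levels at E3 took no part in the choice of the genes. From E3 to E5, 35 of 116 genes were higher at E5 in pigeon and 71 of 115 in chicken, where GM2A was left out for its 0 at E3. Among all compared names 49.5% were higher at E5 in pigeon and 44.4% in chicken. The 116 genes thus had a median change of −0.22 in pigeon and 0.19 in chicken over that interval, against −0.0021 in pigeon and −0.024 in chicken for all names. The E5 values used by the rule enter these changes too. A change of at least 1 upward was found for 3 genes in pigeon, where 0.958% of all names passed, and for 15 in chicken, where 1.2% passed. A change of at least 1 downward was found for 8 genes in pigeon (0.781% of all names) and 7 in chicken (0.441% of all names). The 110 genes that were higher at E8 in both birds had, for comparison, positive changes from E3 to E5 in 80.2% of cases in pigeon and 83.6% in chicken.

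**Figure D5:**
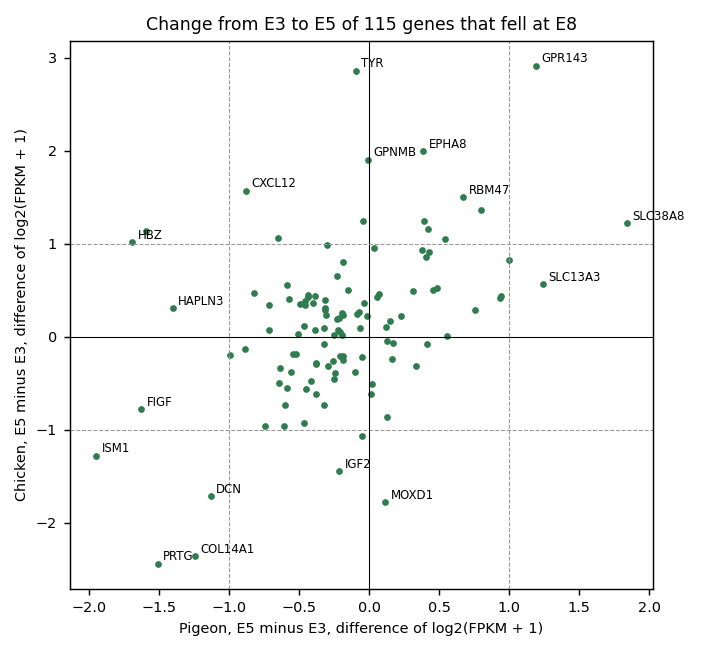
Change from E3 to E5, as a difference of log2(FPKM + 1), in pigeon (horizontal axis) and chicken (vertical axis) for the 115 genes above 0 at E3 in both, with dashed lines at −1 and 1. Most points lie within 1 of zero, with 45 genes in the upper left part (lower at E5 in pigeon, higher in chicken) and 9 in the lower right.

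Direction from E3 to E5 was shared for 26 genes that were higher at E5 in both birds and 35 that were lower in both. It was opposite for 54, of which 45 were lower in pigeon and higher in chicken. Of all 5623 compared names above 0 at E3 in both, 1433 were higher in both and 1783 lower in both. A further 1059 were lower in pigeon and higher in chicken, and 1348 the reverse. By at least 1 in both, 13 of these names were higher and 10 lower. Among the 115 genes, GPR143 and SLC38A8 were higher by at least 1 in both. The changes were 1.19 in pigeon and 2.91 in chicken for GPR143 and 1.84 in pigeon and 1.22 in chicken for SLC38A8. Of the 115 genes, PRTG, COL14A1, ISM1 and DCN were lower by at least 1 in both. The changes were −1.51 in pigeon and −2.44 in chicken for PRTG and −1.24 in pigeon and −2.36 in chicken for COL14A1. They were −1.95 in pigeon and −1.28 in chicken for ISM1 and −1.13 in pigeon and −1.72 in chicken for DCN. These 4 declined at both steps, whereas TYR, GPNMB and OCA2 were level in pigeon and higher at E5 in chicken, with −0.09 in pigeon and 2.86 in chicken for TYR, −0.01 in pigeon and 1.90 in chicken for GPNMB and −0.04 in pigeon and 1.24 in chicken for OCA2. RBM47, an RNA-binding protein, had 2.99, 5.36 and 0.176 FPKM in pigeon and 0.508, 3.26 and 0.135 FPKM in chicken over the stages. Its change from E3 to E5 was 0.67 in pigeon and 1.499 in chicken, and EPHA8 had 0.39 in pigeon and 1.99 in chicken.

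Over the whole span from E3 to E8, 106 of 116 genes were lower by at least 1 in pigeon and 85 of 115 in chicken, against 7.11% of all compared names in pigeon and 3.78% in chicken. No gene was higher at E8 than at E3 in pigeon, and RLBP1, GM2A and EPHA8 were in chicken. These counts use the E8 values that the rule used.

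Pigeon had the larger change from E5 to E8 for 76 of the 116 genes and chicken for 40, with a median difference, pigeon minus chicken, of −0.23. The size of this excess depends on the scale. On a ratio scale, by the share of the E5 level left at E8, which needs no pseudocount, pigeon had the lower share for 62 and chicken for 54, and 25 genes differed by at least 2-fold in each direction. Adding 1 compresses changes at low levels most, and the medians of all compared names are higher in the pigeon table than in the chicken table. The genes with the most negative difference, pigeon minus chicken, were HBZ (−4.41), FBLN1 (−2.51), RLBP1 (−2.14), SDC1 (−2.03) and SERPINF1 (−1.98). Those with the most positive were CXCL12 (1.73), BMP5 (1.44), GPNMB (1.296) and CPZ (0.95). For BMP5 the direction was the reverse on the ratio scale, with 8.69% of the E5 level left in pigeon and 11.9% in chicken. Its pigeon level at E5 was only 1.36 FPKM, where adding 1 compresses the change. HBZ, CXCL12 and BMP5 each held under 2 smallest steps at E8 in pigeon, so their differences between the birds rest on about the smallest value that the table can show. GPNMB, with 83.3 steps, and CPZ, with 39.1 steps, stand clear of that limit.

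By position, 5 pairs of the 116 genes lay within 200 kb of each other in both genomes. Among them were LUM and DCN, RLBP1 and HAPLN3, CYR61 and COL24A1, and ENG and COL27A1. LUM and DCN are 21.1 kb apart in pigeon and 19.7 kb in chicken. Such pairs made up 0.0479% of the 10448 close pairs of compared names in pigeon and, with FAM195A and TMEM204 added, 0.0449% of 13376 in chicken. Of all pairs of compared names at any distance, 0.0413% join 2 of the 116 genes, so closeness was near the background. In chicken, chromosome 1 held 16.4% of the 116 genes and 14.99% of compared names, and chromosome 3 held 13.8% and 9.43%.

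A further 15 shared names would have joined the set but were listed at 0 at E8 in at least 1 bird, and no fold is given for them. ALX1, a factor of facial mesenchyme, had 17.7, 4.38 and 0 FPKM in pigeon and 8.79, 3.55 and 0.00262 FPKM in chicken. ESAM, an adhesion protein of endothelium, had 17.7, 10.4 and 0 FPKM in pigeon and 1.37, 2.69 and 0.0913 FPKM in chicken, and MLANA, a melanosome protein, had 1.15, 12.01 and 0 FPKM in pigeon and 7.01, 57.1 and 2.18 FPKM in chicken. PDE6H, a subunit of cone phosphodiesterase, had 137, 96.2 and 0 FPKM in pigeon and 34.8, 11.6 and 1.82 FPKM in chicken, and PITX1, a homeobox factor, had 15.03, 9.54 and 0 FPKM in pigeon and 5.49, 16.6 and 0.0404 FPKM in chicken. In all 5 the 0 was in pigeon, where an exact 0 can also be a failed estimate.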

How the data were processed

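RNA from whole retinas was sequenced in 18 libraries, 3 for each of 6 groups of species and stage. The authors deposited FPKM values, 1 pooled value per gene and stage, per the file headers. Cuffdiff, Cufflinks, TopHat2 and Bowtie2 are named in the submitters' processing notes. Their versions, builds and annotation: not given in the sources used here. FPKM holds no counts, so depth is unknown beyond the smallest steps in the pigeon table, taken from gene models within 5% of the same length. Because there is 1 value a stage, the planned limma fit, a replicate block and leaving out libraries could not be run, and pooling hides the spread between libraries.

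Differences of log2(FPKM + 1) were computed from the deposited FPKM values with Python 3.11.15, pandas 2.3.3, numpy 2.4.6 and scipy 1.17.1, and figures were drawn with matplotlib 3.10.9. The rule was run on simulated data, in which well-expressed genes were set to fall far past the limit. That outcome was fixed in advance, so it checks the calculation only and not the choice of genes here. The tables hold 24708 chicken rows and 16652 pigeon rows and were normalised separately, so levels are not compared between species. Alternatives were other pseudocounts, an FPKM minimum, median-ratio and quantile scaling, other limits and other ways to match names. The planned description of promoter motifs was not run.

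The members and lists were chosen with earlier results of these data known, and the roles and families after the values were seen. Genes were named by a rule: the 10 lowest mean changes from E5 to E8, up to 4 per list, the 5 highest E5 levels per species, the 5 highest and lowest mean changes from E3 to E5, the 5 largest differences between species in each direction, and the 3 names on each side of the limit. Other members were named by role. Some genes that enter the counts are not reported here by name.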

Additional observations from a re-analysis of the deposited data

Results flagged for a closer look

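Between E3 and E5, HBZ moved in opposite directions in the 2 birds by more than 1 on the log2(FPKM + 1) scale. HBZ changed by −1.69 in pigeon and 1.01 in chicken. The difference between the birds was not tested, since each stage has 1 pooled value. HBZ was lowest at E8 in both birds, and its E8 value in pigeon was 1.04 smallest steps. HBZ belongs to a family of close copies, and its values are uncertain for that reason.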

How the results depend on the processing

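The number of genes lower by at least 1 at E8 in both birds, 116, depends most on the pseudocount and the limit. It was 188 with a pseudocount of 0.1, 40 with a pseudocount of 5, 72 with at least 5 FPKM at E5 in both and 21 with a limit of −2. It stayed within 1.5 times of 116 under the other 9 alternatives, from 99 without the names of the 8 other-tissue lists to 168 with a limit of −0.8. Of these, matching names whatever their case and leaving out the other-tissue names were chosen after seeing the data. The rule judges each gene alone, so leaving out the other-tissue names or short pigeon gene models could only remove members. Keeping the genes listed at 0 at E8 could only add members. Their counts, 99, 112 and 131, were therefore fixed in advance by the main count and do not test its stability. From E3 to E5, genes higher by at least 1 in pigeon numbered 6 with a pseudocount of 0.1 and 1 with 5, and those lower by at least 1 numbered 5 with a pseudocount of 5. In chicken 6 were higher by at least 1 with a pseudocount of 5. With the minimum of 5 FPKM, pigeon had 4 lower by at least 1 and 18 above 0, chicken 9 higher by at least 1, 4 lower by at least 1 and 38 above 0, and 49 genes had the larger change from E5 to E8 in pigeon; fewer genes enter that alternative. The larger change was in pigeon for 62 genes with a pseudocount of 0.1 and 91 with 5. Genes of the 8 other-tissue lists numbered 8 with a pseudocount of 5. Of 928 changes of single genes recomputed, 0 reversed, but this outcome was all but fixed in advance. Another pseudocount cannot change the sign of a difference. Median-ratio scaling left the median change of all names from E5 to E8 at 0.019 in pigeon and −0.043 in chicken. The genes were chosen for changes of −1 or lower. Of 95 list counts, 77 stayed within 1.5 times. These include lists with no member in the main count, where a 0 that stayed 0 was taken as unchanged. A pseudocount of 5 or the minimum of 5 FPKM could only remove members, so those 0 counts were fixed in advance.

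No paired analysis was possible because the deposited columns carry 1 pooled value per stage and no replicate, and for the same reason leaving out each replicate and the replicate block were not run. Depth limits the E8 values most, where 27 genes held under 5 smallest steps in pigeon.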
